A study of Mus musculus with 12 samples.

Results

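The genes described here are 10 integrin chains, Itga2, Itga2b, Itga4, Itgal, Itgam, Itgax, Itgb1, Itgb2, Itgb3 and Itgb7, chosen by their symbols from the 31301 genes of a bulk RNA sequencing count table. Itga2 encodes CD49b, the surface protein on which these basophils were sorted, and the other chains were taken to set it beside. Basophils are rare granulocytes, and bone marrow-derived basophils (BMBAs) are grown from marrow in culture as their surrogate. Marrow cells came from C57BL/6J mice of wild-type genotype and were kept for 7 days in 0.3 ng/mL interleukin-3 (IL-3) or in 1 µg/mL of the epithelial cytokine thymic stromal lymphopoietin (TSLP; another label gives this dose in mg/mL). From each culture, FcεRIαhi CD49blo cells, here called immature, and FcεRIαlo CD49bhi cells, here called mature, were isolated by sorting, which gave 4 groups of 3 libraries each. The cells were not taken from tissue, and a group describes what a gate held in a culture of bone marrow, so that fewer cells of a type and less RNA per cell cannot be told apart in these bulk values. The comparisons ask how the chains differ between the 2 stages of maturation and between the 2 cytokines that elicit basophils.

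Integrins are adhesion receptors built from 1 alpha and 1 beta chain, and a chain reaches the cell surface as part of such a pair. The pair of CD49b with the beta chain of Itgb1 binds collagen, and antibodies to CD49b are used to mark mouse basophils and natural killer cells. The alpha chain of Itga4 pairs with the product of Itgb1 or of Itgb7 and binds VCAM-1, fibronectin or MAdCAM-1 on endothelium and matrix. The products of Itgal, Itgam and Itgax pair with that of Itgb2 as the leukocyte integrins. Itga2b with Itgb3 makes the fibrinogen receptor best known from platelets.

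Library totals ran from 1720065 to 3685285 counts and 14494 to 16256 genes had a count in a library. All 8 basophil marker genes found in the table stood at 10 CPM or more in every group (CPM is a gene's count relative to the scaled total of its library), while Kit and most other mast cell markers did not. Fcer1a, the other gene of the sort, stood at 1599 ± 15.1 CPM in the immature and 1023 ± 214 in the mature libraries with IL-3, and 1338 ± 167 in the immature and 1263 ± 466 in the mature libraries with TSLP (mean ± SD, n = 3). The library TSLP mature 1 stood apart. The 13 markers of neutrophils and their precursors summed to 1002 CPM in it, where replicates 2 and 3 of its group had 126.5 and 132.9 CPM. The 11 macrophage and dendritic cell markers summed to 1232 CPM beside 527.7 and 503.7 CPM, and the 8 B lineage markers to 180.5 CPM beside 19.01 and 20.6 CPM. The part of these cells in its integrin values was not tested, and the integrin results that rest on it are given with and without it. Markers of other cells also moved with the stage. The summed neutrophil and precursor markers were lower in mature cells with IL-3 (2728 to 3039 CPM against 449.9 to 627.2 CPM), while 8 of the 13 had a higher mean there. The sum was carried by Ctsg and Mpo, genes of early granules, with means of 1926 and 714 CPM in immature and 148 and 1.46 CPM in mature cells. Of the 12 tested, 3 were called higher (Ly6g, Retnlg and Mmp8) and 3 lower (Lcn2, Mpo and Ctsg) between the IL-3 stages by edgeR. Between the TSLP stages 7 were called higher and 3 lower. Of the 7, Ngp, Ly6g and Mmp8 lay above the immature libraries in every TSLP mature library. Ltf, Camp, S100a8 and S100a9 overlapped, and their highest TSLP mature library stood far above the rest (S100a8 at 134.6 CPM beside 1.23 and 5.11 CPM). These calls are not given without TSLP mature 1. The summed macrophage and dendritic cell markers were 150.3 to 290.1 CPM in immature and 344.1 to 651.5 CPM in mature libraries with IL-3. With TSLP they were 201.6 to 244.5 CPM in immature libraries, and 503.7 to 1232 CPM in mature ones. Of the 6 tested, 3 were called higher in mature cells with IL-3 and 6 with TSLP, and none lower (edgeR). The 6 eosinophil markers summed to 28.6 to 36.4 and 63.7 to 88.7 CPM in the IL-3 stages, and to 16.4 to 34.05 and 61.0 to 102.5 CPM in the TSLP stages. The part of these markers' cells in the differences between stages was not tested. The 8 NK and T cell markers, of which Ncr1 and Cd3e define those cells, summed to between 6.15 and 55.4 CPM. In immature libraries this sum was 48.67 to 55.42 CPM with IL-3 and 12.03 to 19.93 CPM with TSLP. There the neutrophil and precursor sum was 2728 to 3039 CPM with IL-3 and 1428 to 1495 CPM with TSLP. The B lineage sum was 6.57 to 7.28 CPM with IL-3 and 34.38 to 40.52 CPM with TSLP. The macrophage and dendritic cell, eosinophil, and platelet and megakaryocyte sums overlapped there. The part of these markers' cells in the differences between cytokines was not tested.

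Itgam, Itgb1 and Itgb7 were higher in mature than in immature basophils of both cultures, as was Itga2, on whose product the cells were sorted. Itgb3 was higher in mature cells with IL-3, and its call with TSLP was lost in 16 of 22 alternative analyses. For Itga2, Itgam, Itgb1 and Itgb3 the gap between the stages was wider in IL-3 than in TSLP cultures. Itga4 went the other way and fell in IL-3 cultures, while Itga2b and Itgb2 did not pass the test between the stages of either culture. Between the cytokines, 7 chains were called in immature cells, where 13.3% of all tested genes were called. In mature cells 3 were called, beside 24.3% of all tested genes. Rn45s, a ribosomal RNA gene, took 7.43% to 12.5% of counts in the IL-3 immature and 17.6% to 20.2% in the TSLP immature libraries, and 7 chains were also called between them with Rn45s left out. TSLP immature cells had 3.17-fold more Itga2, 3.81-fold more Itgam and 3.72-fold more Itgb3 than IL-3 immature cells. In mature cells, Itgb1 was lower and Itga2b higher with TSLP, the latter a call lost in 3 of 21 alternatives. Itgb3 was also called higher there, but its libraries overlapped and the call was lost in 17 of 21 alternatives.

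A gene was called where the edgeR quasi-likelihood test gave a Benjamini-Hochberg adjusted p under 0.05 over the 10861 genes tested, and all 10 chains passed the filter on low counts. Between IL-3 mature and IL-3 immature cells, 7 chains were called, 6 higher and 1 lower in mature cells, where 46.2% of all tested genes were called (24.1% higher, 22.1% lower). Between TSLP mature and TSLP immature cells, 6 were called, each higher in mature cells, where 25.1% of tested genes were called (12.9% higher, 12.2% lower). Itga2 is among the chains called higher in both of these comparisons. The cells were sorted on its product, so neither its call nor the gap between its libraries tests maturation. Between the immature cells of the cultures, 7 were called, 6 higher and 1 lower with TSLP, where 13.3% of tested genes were called (7.38% higher, 5.90% lower). Between the mature cells, 3 were called, 2 higher and 1 lower with TSLP, where 24.3% of tested genes were called (12.4% higher, 11.9% lower). The interaction, that is, the effect of maturation in TSLP cultures minus that in IL-3 cultures, was called for 4 chains, Itga2, Itgam, Itgb1 and Itgb3, each with a smaller rise in TSLP cultures, where 4.19% of tested genes were called, 2.15% in that direction and 2.04% in the other. The libraries of the compared groups did not overlap for 7 chains between the IL-3 stages (57.8% of tested genes), 7 between the TSLP stages (38.3%), 8 between immature cells (38.0%) and 4 between mature cells (38.6%). The comparison of stages in IL-3 cultures and that of cytokines in immature cells share the 3 IL-3 immature libraries, as those of TSLP mature cells share theirs.

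**Figure D1:**
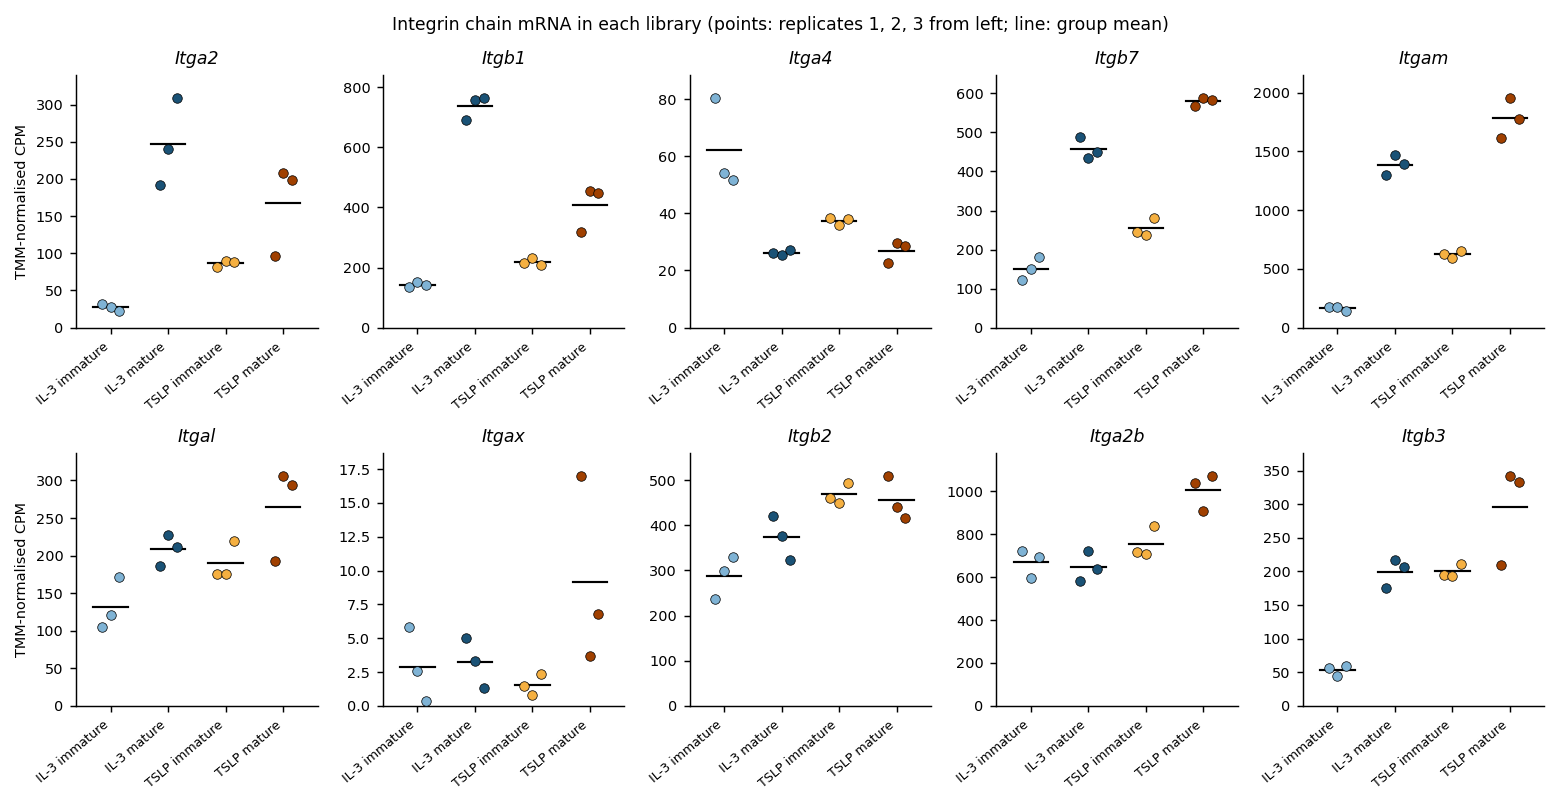
TMM-normalised CPM (vertical axis, from 0) of the 10 integrin chains in the 12 libraries, by group; points are replicates 1 to 3 and lines are group means. Itga2, Itgb1, Itgam and Itgb3 are lowest in the 3 IL-3 immature libraries, Itga4 is highest there, and Itga2b sits between 583.1 and 1072 CPM throughout.

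Itga2 and Itgb1, the chains of the collagen receptor, had the following stretches of 250 bases before their RefSeq starts. They are shown with those of Itgam, which moved with them, of Itga4, the chain that fell, and of Itga2b, which did not pass the test between stages (RefSeq windows on GRCm38.p6, read 5′ to 3′ on the strand of the gene). Capitals mark matches to any of 5 short motifs searched on both strands, namely AGATAA for GATA factors, TGTGGT for RUNX factors, GAGGAAG for PU.1, TTCNNNGAA for STAT factors and TTGCNNAA for C/EBP factors.
Itga2, chr13:114932101-114932350, minus strand: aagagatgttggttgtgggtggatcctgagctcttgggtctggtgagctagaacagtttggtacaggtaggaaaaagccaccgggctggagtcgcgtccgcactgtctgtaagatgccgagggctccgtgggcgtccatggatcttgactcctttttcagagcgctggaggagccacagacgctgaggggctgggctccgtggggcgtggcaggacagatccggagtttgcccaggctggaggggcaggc
Itgb1, chr8:128685404-128685653, plus strand: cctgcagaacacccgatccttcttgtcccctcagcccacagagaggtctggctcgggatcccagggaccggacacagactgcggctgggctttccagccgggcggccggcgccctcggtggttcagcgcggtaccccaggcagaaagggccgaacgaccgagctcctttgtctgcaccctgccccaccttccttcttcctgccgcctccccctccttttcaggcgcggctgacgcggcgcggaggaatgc
Itgam, chr7:128062390-128062639, plus strand: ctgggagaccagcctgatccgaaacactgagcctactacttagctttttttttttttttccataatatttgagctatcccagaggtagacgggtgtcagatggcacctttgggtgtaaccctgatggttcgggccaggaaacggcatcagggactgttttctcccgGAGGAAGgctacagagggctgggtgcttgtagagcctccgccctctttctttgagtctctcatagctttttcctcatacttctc
Itga4, chr2:79255176-79255425, plus strand: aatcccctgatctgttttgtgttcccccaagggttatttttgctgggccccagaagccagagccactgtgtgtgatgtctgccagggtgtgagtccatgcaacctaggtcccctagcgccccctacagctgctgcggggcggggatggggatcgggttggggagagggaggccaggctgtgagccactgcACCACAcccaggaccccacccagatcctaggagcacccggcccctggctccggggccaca
Itga2b, chr11:102469884-102470133, minus strand: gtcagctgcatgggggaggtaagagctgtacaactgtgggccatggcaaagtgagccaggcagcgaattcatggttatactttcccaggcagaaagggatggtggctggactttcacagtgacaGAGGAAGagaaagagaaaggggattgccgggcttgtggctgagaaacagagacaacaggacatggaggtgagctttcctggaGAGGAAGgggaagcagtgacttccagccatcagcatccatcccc
Of the 10 chains, 7 had such a window, Itgax and Itgb7 besides these 5. No motif of the 5 matched before Itga2, Itgb1 or Itgb7. The PU.1 letters matched at position -84 before Itgam and at -126 and -44 before Itga2b. They occur in 10.6% of the 32851 windows of this length. In the GENCODE annotation Itga2b starts further upstream, at 102470122. Both of its matches therefore lie within the gene as drawn there. The RUNX letters matched on the opposite strand at -60 before Itga4 (14% of windows) and the GATA letters at -217 before Itgax (9.99%). The STAT and C/EBP letters, which occur in 7.02% and 9.56% of windows, matched in none of the 7. A match is a run of letters and not a binding site.

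Itga2 lies on the minus strand of chromosome 13 (chr13:114833081-114932100, GRCm38, GENCODE M21) and is a protein-coding gene. Its level was 31.0, 28.3 and 22.5 CPM in IL-3 immature replicates 1, 2 and 3 and 192, 239.7 and 309 CPM in IL-3 mature replicates. In TSLP cultures it was 81.5, 89.1 and 88.5 CPM in immature and 96.9, 209 and 199 CPM in mature replicates. The libraries of each mature group lay above those of the immature group of the same culture, which is the order the gate on CD49b would place them in. Because of that gate the differences between stages do not test maturation. Itga2 went through the same fit as the other chains and is counted among those called. The differences were 3.18 ± 0.28 on the log2 scale with IL-3 and 0.96 ± 0.25 with TSLP (estimate ± standard error). The 3 TSLP immature libraries, sorted as CD49blo, lay above the 3 IL-3 immature libraries of the same gate name, by 1.67 ± 0.27 (edgeR adjusted p = 0.000981), and below the 3 IL-3 mature libraries. The mature libraries of the 2 cytokines overlapped, with a difference of -0.55 (95% interval -1.08 to -0.02; edgeR adjusted p = 0.117).

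The interaction for Itga2 was -2.22 ± 0.37 on the log2 scale (edgeR adjusted p = 0.00287), which makes the step from the immature to the mature gate 4.66-fold smaller in TSLP than in IL-3 cultures. Without TSLP mature 1, where Itga2 was lowest of its group, the interaction was -1.99 (edgeR adjusted p = 0.000285) and the difference between the TSLP stages 1.14. The difference between the TSLP stages was not called without TSLP immature 1, or TSLP mature 2 or 3 (log2 fold change 0.70 to 0.85, edgeR adjusted p = 0.0578 to 0.0758), and that between the mature groups was called without TSLP mature 2 (log2 fold change -0.80, edgeR adjusted p = 0.0492). Whether the gates were drawn at the same fluorescence in both cultures is not given in the sources used here, and the part of the gates in these differences was not tested.

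Itgb1 encodes CD29, the beta chain that pairs with CD49b and with many other alpha chains (chr8:128685654-128733200, plus strand). It was measured at 136, 150.3 and 141 CPM in IL-3 immature replicates 1 to 3 and at 692, 757 and 766 CPM in IL-3 mature replicates. The TSLP immature replicates held 215, 231 and 208 CPM and the TSLP mature replicates 318, 456 and 448 CPM. All 4 groups were apart from each other, rising from immature cells with IL-3 through immature and mature cells with TSLP to mature cells with IL-3. Itgb1 rose with maturation by 2.37 ± 0.18 on the log2 scale in IL-3 cultures (edgeR adjusted p = 3.58e-08). With TSLP the rise was 0.90 ± 0.17 (edgeR adjusted p = 0.00126). The difference of these effects was -1.47 ± 0.25 (edgeR adjusted p = 0.00302) and -1.37 without TSLP mature 1. In mature cells Itgb1 was 1.81-fold lower with TSLP (log2 fold change -0.86 ± 0.17, edgeR adjusted p = 0.00297), and it was the only one of the 10 chains called lower in that comparison. In immature cells it was higher with TSLP by 0.61 ± 0.18 (edgeR adjusted p = 0.0303), which did not pass with no filter on low counts (edgeR adjusted p = 0.0907) and without TSLP immature 1, 2 or 3, IL-3 immature 1, 2 or 3, or IL-3 mature 2 (log2 fold change 0.53 to 0.63, edgeR adjusted p = 0.0557 to 0.112).

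Itga4 and Itgb7 encode the chains of the pair that binds MAdCAM-1, and they moved in opposite directions. Itga4 (chr2:79255426-79333123, plus strand) was measured at 80.5, 54.3 and 51.6 CPM in the immature and 26.0, 25.5 and 27.1 CPM in the mature replicates with IL-3, and at 38.2, 35.9 and 38.1 CPM in the immature and 22.7, 29.5 and 28.6 CPM in the mature replicates with TSLP. The IL-3 immature libraries were highest, the TSLP immature libraries came next, and the mature groups overlapped at the bottom. Itga4 fell with maturation by 1.24 ± 0.20 on the log2 scale in IL-3 cultures (edgeR adjusted p = 9.17e-05), and in TSLP cultures the difference was -0.48 (95% interval -0.89 to -0.06, edgeR adjusted p = 0.0861). The latter was called without IL-3 immature 1 or 3 (log2 fold change -0.55 to -0.55, edgeR adjusted p = 0.0252 to 0.0405), and with ribosomal RNA left out or a filter at 10 CPM (edgeR adjusted p = 0.0314 to 0.0498). In immature cells Itga4 was lower with TSLP by -0.72 ± 0.19 (edgeR adjusted p = 0.0212), which was not called without TSLP immature 2 or 3, or IL-3 immature 1 (log2 fold change -0.75 to -0.51, edgeR adjusted p = 0.0524 to 0.1). An exon of Cerkl overlaps Itga4 on the opposite strand. Cerkl itself held 4 to 15 counts in a library, and whether strand was used in counting is not given in the sources used here.

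Itgb7 (chr15:102215995-102231944, minus strand) encodes a partner of the Itga4 product and of the alphaE chain of Itgae. It was measured at 122, 150.3 and 181 CPM in the immature and 489, 433 and 449 CPM in the mature replicates with IL-3. With TSLP it stood at 246, 237 and 281 CPM in immature and 568, 589.6 and 584 CPM in mature replicates. The groups did not overlap, and the TSLP mature libraries were highest. The rise with maturation was 1.60 ± 0.18 on the log2 scale in IL-3 cultures (edgeR adjusted p = 2.23e-06). With TSLP the rise was 1.19 ± 0.18 (edgeR adjusted p = 0.000112). The difference of these effects, -0.41 with a 95% interval of -0.92 to 0.11, did not pass the test (edgeR adjusted p = 0.404). Immature cells had more Itgb7 with TSLP, by 0.75 ± 0.18 (edgeR adjusted p = 0.011), but not without TSLP immature 3, or IL-3 immature 1 or 2 (log2 fold change 0.61 to 0.71, edgeR adjusted p = 0.053 to 0.0637). Itgae held 38 counts in the 12 libraries and was not tested.

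The leukocyte integrins share the beta chain of Itgb2, and their alpha chains Itgal, Itgam and Itgax lie on the plus strand of chromosome 7. Itgam encodes CD11b (chr7:128062640-128118491), which with the beta chain makes the complement receptor Mac-1. It was measured at 178, 173 and 143 CPM in IL-3 immature replicates and 1297, 1466 and 1389 CPM in IL-3 mature replicates. The TSLP immature replicates held 629.6, 595 and 653 CPM and the TSLP mature replicates 1611, 1959 and 1779 CPM. All 4 groups were apart, with IL-3 immature lowest and TSLP mature highest. Itgam rose with maturation 8.41-fold in IL-3 cultures (log2 fold change 3.07 ± 0.18, edgeR adjusted p = 2.44e-09). With TSLP it rose 2.85-fold (log2 fold change 1.51 ± 0.17, edgeR adjusted p = 7.74e-06). The interaction was -1.56 ± 0.24 (edgeR adjusted p = 0.00174) and -1.54 without TSLP mature 1, the library with the most neutrophil and macrophage markers of its group, in which Itgam was lowest. Adgre1, the gene of the macrophage marker F4/80, had the same order of groups, with 4.04 ± 1.15 CPM in the immature and 93.8 ± 17.4 CPM in the mature libraries with IL-3, and 51.4 ± 6.71 and 195 ± 21.0 CPM with TSLP. It was chosen after its values were seen. The 11 macrophage and dendritic cell markers together did not have this order. Their sums overlapped between the immature groups, at 150.3 to 290.1 CPM with IL-3 and 201.6 to 244.5 CPM with TSLP. The part of such cells in the Itgam values was not tested. TSLP immature cells had 1.93 ± 0.17 more Itgam on the log2 scale than IL-3 immature cells (edgeR adjusted p = 3.48e-06), while in mature cells the difference of 0.37 did not pass (95% interval 0.01 to 0.72, edgeR adjusted p = 0.121; DESeq2 adjusted p = 0.0465). In the annotation, 66.3% of the 50-base stretches of the Itgam exons are shared with Gm49368, a gene that the count table did not list, so the counts may hold reads of both.

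Itgal encodes CD11a of LFA-1 (chr7:127296260-127335138), a receptor for ICAM-1. It was measured at 104, 120.3 and 171 CPM in the immature and 187, 227 and 212 CPM in the mature replicates with IL-3, and 176, 175 and 219 CPM in the immature and 192, 306 and 294 CPM in the mature replicates with TSLP. The IL-3 immature libraries were below the rest, and the other 3 groups overlapped. Its rise with maturation in IL-3 cultures was 0.66 ± 0.22 on the log2 scale (edgeR adjusted p = 0.022) and was not called without IL-3 immature 1 or 2, or IL-3 mature 2 or 3 (log2 fold change 0.49 to 0.61, edgeR adjusted p = 0.0619 to 0.112). In TSLP cultures the difference was 0.48 ± 0.22 (edgeR adjusted p = 0.121) and was called without TSLP mature 1 (log2 fold change 0.57, edgeR adjusted p = 0.0316). Between immature cells it was 0.52 (edgeR adjusted p = 0.128), called without IL-3 immature 3 (log2 fold change 0.72, edgeR adjusted p = 0.0453).

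Itgb2 encodes CD18 (chr10:77530252-77565708, plus strand) and did not follow Itgam. Its level was 237, 298 and 330.1 CPM in the immature and 419.6, 377 and 324 CPM in the mature replicates with IL-3, and 461, 449.7 and 494 CPM in the immature and 509.7, 441 and 416 CPM in the mature replicates with TSLP. The stages of each culture overlapped, and the differences between them were 0.37 in IL-3 (95% interval -0.01 to 0.75, edgeR adjusted p = 0.0992) and -0.04 in TSLP cultures (95% interval -0.42 to 0.34, edgeR adjusted p = 0.897). In immature cells it was higher with TSLP by 0.70 ± 0.18 (edgeR adjusted p = 0.0178), which was not called without TSLP immature 1, 2 or 3, or IL-3 immature 1 or 2 (log2 fold change 0.56 to 0.69, edgeR adjusted p = 0.0579 to 0.0854).

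Itgax encodes CD11c (chr7:128129547-128150657), best known from dendritic cells, and was near the floor of detection, with 12, 9 and 1 counts in the immature and 14, 9 and 3 in the mature replicates with IL-3, and 5, 2 and 7 in the immature and 63, 13 and 22 in the mature replicates with TSLP. The highest count was in TSLP mature 1, the library with the most macrophage and dendritic cell markers. The difference between TSLP stages was 2.51 ± 0.71 on the log2 scale (edgeR adjusted p = 0.016) and was not called without TSLP immature 1 (edgeR adjusted p = 0.0771), TSLP immature 2 (edgeR adjusted p = 0.0818) or TSLP mature 1, where it came to 1.60 (edgeR adjusted p = 0.0893). With no filter on low counts, Itgax was also called between the mature groups and in the interaction (edgeR adjusted p = 0.00683 and 0.0481).

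Itga2b encodes CD41 (chr11:102453297-102470122, minus strand) and was the most even of the 10 chains, with a highest group mean 1.56 times the lowest. It was measured at 720.4, 596 and 695 CPM in the immature and 583, 722 and 635 CPM in the mature replicates with IL-3, and 715, 707 and 837 CPM in the immature and 1039.8, 906 and 1072 CPM in the mature replicates with TSLP. The TSLP mature libraries lay above the other 3 groups, which overlapped. Between the IL-3 stages the difference was -0.05 on the log2 scale with a 95% interval of -0.41 to 0.31 (edgeR adjusted p = 0.827). Between the TSLP stages it was 0.42 ± 0.17 (edgeR adjusted p = 0.0842; DESeq2 adjusted p = 0.0413). In mature cells Itga2b was higher with TSLP by 0.64 ± 0.17 (edgeR adjusted p = 0.0142), a call lost without TSLP mature 3, or IL-3 mature 1 or 3 (log2 fold change 0.55 to 0.57, edgeR adjusted p = 0.0605 to 0.0691). The 10 platelet and megakaryocyte markers summed to between 6.81 and 70.1 CPM in a library, against 583.1 to 1072 CPM for Itga2b alone. They summed to 6.81 and 8.31 CPM in TSLP mature replicates 2 and 3, where Itga2b stood at 905.9 and 1072 CPM. Of the 4 tested, Gp1ba and Gp5 were called lower in mature cells with IL-3 and Gp5 with TSLP, and none higher (edgeR). The part of platelets or megakaryocytes in the Itga2b values was not tested.

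Itgb3 encodes CD61 (chr11:104608000-104670476, plus strand), which pairs with CD41 or with the alphav chain of Itgav. Its level was 56.8, 45.1 and 59.6 CPM in the immature and 175, 217 and 206 CPM in the mature replicates with IL-3, and 195, 194 and 211 CPM in the immature and 209.6, 342 and 334 CPM in the mature replicates with TSLP. The IL-3 immature libraries stood alone at the bottom, and the other 3 groups overlapped in part. Itgb3 rose with maturation in IL-3 cultures by 1.89 ± 0.21 (edgeR adjusted p = 1.91e-06), and in immature cells it was 1.90 ± 0.21 higher with TSLP (edgeR adjusted p = 2.80e-05). The interaction was -1.33 ± 0.28 (edgeR adjusted p = 0.0131) and -1.19 without TSLP mature 1. The differences between TSLP stages (0.56, edgeR adjusted p = 0.047) and between mature groups (0.56, edgeR adjusted p = 0.0476) passed narrowly. The first was lost with 5 other settings (edgeR adjusted p up to 0.116) and without any 1 library other than TSLP mature 1 (log2 fold change 0.37 to 0.56, edgeR adjusted p = 0.0535 to 0.227). The second was lost with 6 other settings (edgeR adjusted p up to 0.0847) and without any 1 library other than TSLP mature 1 (log2 fold change 0.38 to 0.57, edgeR adjusted p = 0.0746 to 0.2).

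**Figure D2:**
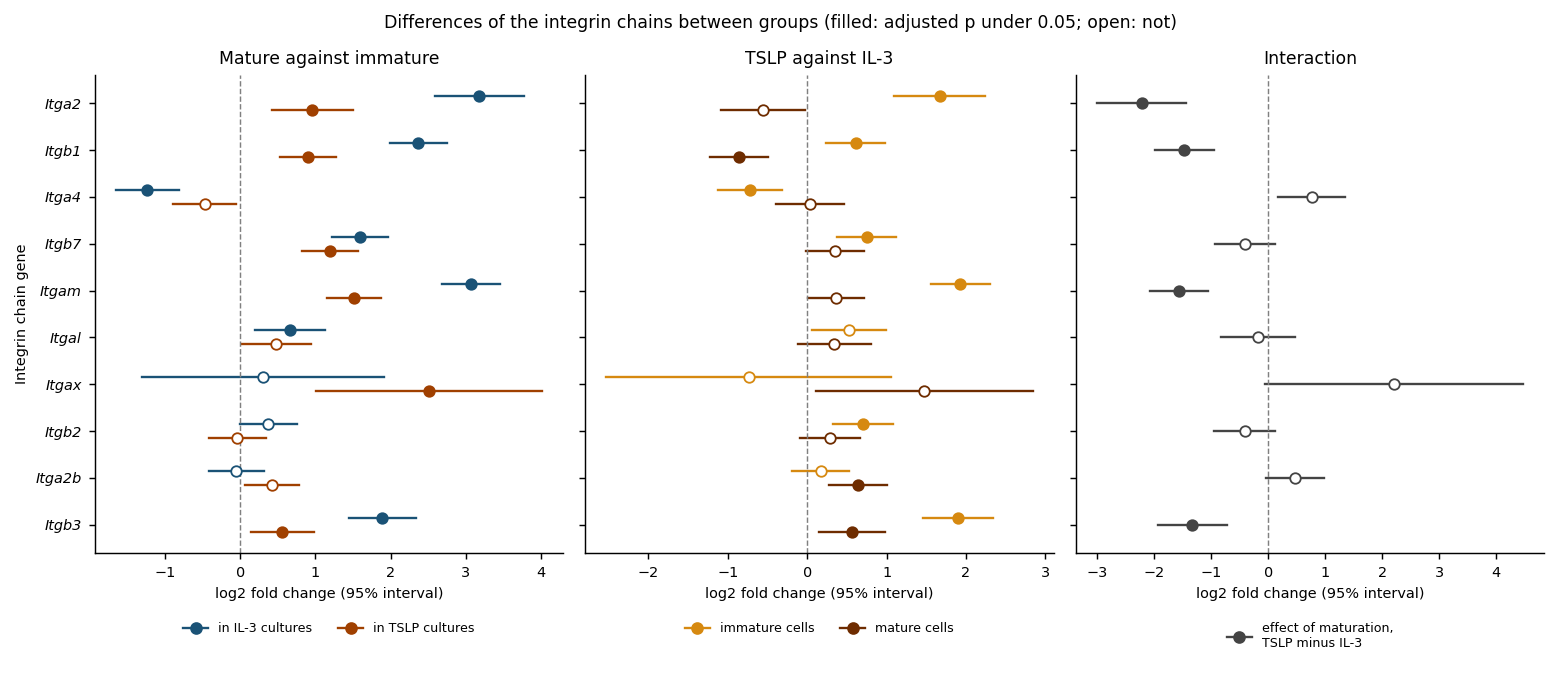
Log2 fold changes (horizontal axes; circles) with 95% intervals (lines) of the 10 chains between stages of each culture, between cytokines at each stage, and for the interaction; filled circles passed an edgeR adjusted p of 0.05. In the interaction, Itga2 at -2.22, Itgam at -1.56, Itgb1 at -1.47 and Itgb3 at -1.33 are filled, and the other 6 chains are open. Itga2 is also filled between the stages, where the cells were sorted on its product.

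Divided by the length of the principal transcript, the highest chain stood 169.6 to 569.8 times above the lowest within a group, from Itgax, which was lowest in all 4, to Itga2b or Itgam. Itga2b was highest in both immature groups, at 195 ± 19.03 CPM per kb in IL-3 and 219 ± 21.2 CPM per kb in TSLP immature libraries, and Itgam in both mature groups, at 298 ± 18.2 and 384 ± 37.4 CPM per kb. In each case its libraries were apart from those of the next chain. By the union of all exons, Itgb2 and not Itga2b came first in TSLP immature cells. The level of Itga2 per kb was 3.84 ± 0.613, 34.7 ± 8.33, 12.2 ± 0.596 and 23.7 ± 8.71 CPM per kb in immature and mature cells with IL-3 and in immature and mature cells with TSLP. It ranked 9, 7, 8 and 8 of the 10 chains in these groups, below its partner Itgb1 at 37.4 ± 1.91, 194 ± 10.6, 57.1 ± 2.98 and 107 ± 20.4 CPM per kb. In IL-3 mature cells, its libraries overlapped those of Itgal above and Itgb3 below, and by the union of all exons it ranked 6 there, above both.

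**Figure D3:**
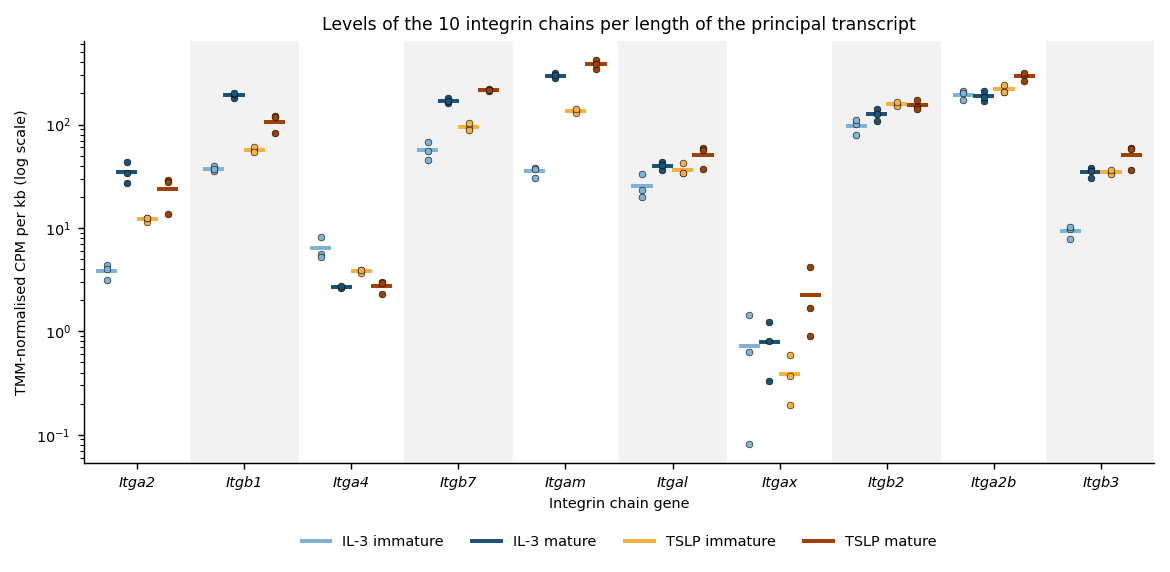
TMM-normalised CPM per kb of the principal transcript (vertical log axis) for the 10 chains in the 4 groups; points are libraries and lines are group means. Itgam moves from 35.4 CPM per kb in IL-3 immature to the top of both mature groups, and Itgax stays at the bottom.

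The balance of counts between chains that make up a pair, or that share a partner, was compared within each library, which takes the scaling of libraries out. The p-values come from an exact permutation test over 400 arrangements of the groups' labels within stage or culture, 2-sided, with a smallest possible p of 0.005, and were adjusted over 7 tests. Itga2 had 0.192 ± 0.0348 counts per count of Itgb1 in immature and 0.332 ± 0.0648 in mature libraries with IL-3. With TSLP the ratio was 0.397 ± 0.0246 in immature and 0.402 ± 0.0845 in mature libraries (n = 3 for each mean ± SD). The log2 ratio was higher with TSLP by 0.66, by 1.05 in immature and by 0.27 in mature cells (exact permutation p = 0.015, adjusted 0.0467). The mature libraries overlapped, at 0.277 to 0.404 with IL-3 and 0.305 to 0.457 with TSLP. Whether the CD49b gates matched between the cultures is not given, and their part in this difference was not tested. Between stages the log2 ratio differed by 0.78 in IL-3 cultures and by -0.00 in TSLP cultures, which is given without a test because of the sort.

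Itgb7 and Itgb1 compete for the alpha chain of Itga4. There were 0.622 ± 0.0743 counts of Itgb7 per count of Itgb1 in IL-3 mature libraries and 1.46 ± 0.283 in TSLP mature libraries, which did not overlap, with 1.06 ± 0.196 in IL-3 immature and 1.17 ± 0.162 in TSLP immature libraries. The log2 ratio was 0.69 higher with TSLP (exact permutation p = 0.02, adjusted 0.0467), by 0.15 in immature and 1.22 in mature cells. Between stages it differed by -0.76 with IL-3 and 0.31 with TSLP, which together did not pass (-0.22, exact permutation p = 0.31). Among the leukocyte integrins, Itgal had 0.827 ± 0.327 counts per count of Itgam in IL-3 immature and 0.303 ± 0.0290 in TSLP immature libraries, and 0.150 ± 0.00579 and 0.147 ± 0.0244 in the mature libraries. The log2 ratio of Itgal to Itgam differed between stages by -1.72 (exact permutation p = 0.005, the smallest possible, adjusted 0.035). Both chains had higher means in mature cells. The log2 fold changes of Itgal were 0.66 with IL-3 and 0.48 with TSLP, the latter not called, and those of Itgam 3.07 and 1.51. The difference of their ratio between cytokines, -0.72, did not pass (exact permutation p = 0.05, adjusted 0.07). Itga2b had 12.5 ± 0.794 counts per count of Itgb3 in immature and 3.24 ± 0.138 in mature libraries with IL-3. With TSLP it had 3.76 ± 0.179 in immature and 3.61 ± 1.21 in mature libraries. This ratio differed between stages by -1.94 with IL-3 and -0.11 with TSLP, together -1.03 (exact permutation p = 0.035, adjusted 0.0613), and between cytokines by -0.81 (exact permutation p = 0.06, adjusted 0.07). Without TSLP mature 1 the latter was -0.94 (exact permutation p = 0.015), and without TSLP mature 2 the former was -0.93 (exact permutation p = 0.065).

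**Figure D4:**
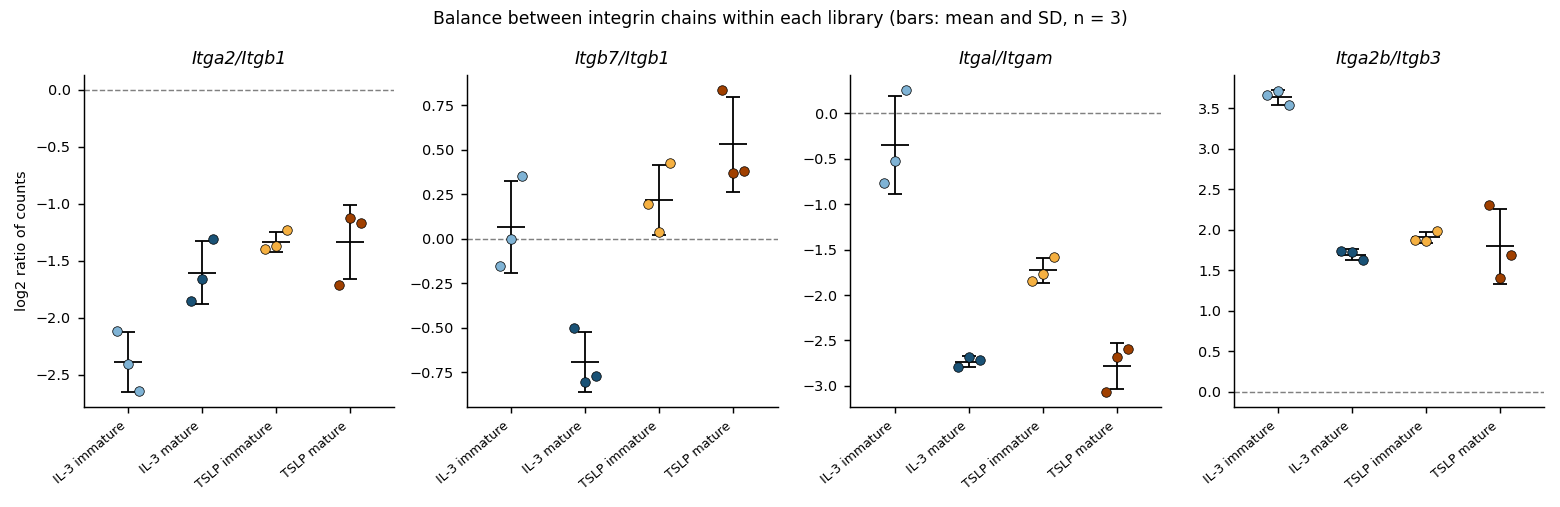
Log2 ratio of counts between 2 integrin chains (vertical axes) in each library, with group mean and SD (bars, n = 3). The Itga2b/Itgb3 ratio is above 11 counts per count in the 3 IL-3 immature libraries and below 5 in the other 9, and the Itgal/Itgam ratio is lower in all 6 mature than in all 6 immature libraries.

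Across the 12 libraries, Itga2 went most closely with Itgb1 and Itgam among the chains (Pearson r of log2 CPM = 0.94 for each), then with Itgb7 (0.87) and Itgb3 (0.87). Its r was 0.23 with Itga2b and -0.85 with Itga4. Of 7550 genes whose mean over the libraries reached 10 CPM, Lrp12 (r = 0.99), Ptprc, the gene of CD45 (0.98), and Gm4070 (0.98) were most like it, and 74 genes were closer to it than Itgb1. Itgam was most like Nt5e, the gene of CD73 (r = 0.99), and Itgb7 was most like Tprgl (1.00) and Txnip (0.99). Itga4 was most like Spcs3 (0.97), Uxs1 (0.97) and Canx (0.96), and its r with each of the other 8 chains was negative, from -0.94 with Itgb7 to -0.33 with Itga2b. These values are descriptions over libraries that fall into 4 groups and carry no test.

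The other integrin chains, the adaptors that link integrins to the cytoskeleton or switch their activity, and the ligands were counted as 3 lists. Of 17 other chains, 15 had counts and 6 passed the filter. Between the IL-3 stages 3 of the 6 were called, each higher in mature cells (46.2% of all tested genes were called). Between the TSLP stages 1 was called higher and 1 lower (25.1% of all), and in the interaction none was called by edgeR (4.19% of all). The interaction had an unadjusted p under 0.05 for 1 of the 6, and DESeq2 called 1. Itgb5, whose product pairs with the alphav chain, rose from 4.14 ± 1.77 to 18.3 ± 2.77 CPM with maturation in IL-3 cultures and from 4.28 ± 1.12 to 17.7 ± 3.14 CPM in TSLP cultures (log2 fold changes 2.21 ± 0.32 and 2.05 ± 0.31, edgeR adjusted p = 3.48e-05 and 0.000136). Its interaction was -0.16 with a 95% interval of -1.13 to 0.81. The median log2 fold change between stages was 0.49 over the 6 other chains and 1.13 over the 10 chains in IL-3 cultures, beside 0.06 over all tested genes. In TSLP cultures these medians were 0.20, 0.73 and 0.03. Those over the 10 chains include Itga2, on whose product the cells were sorted. Without TSLP mature 1, 4 of the 6 were called between the TSLP stages and 1 in the interaction.

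Of 48 adaptors and regulators, 38 were tested, of which 21 were called between the IL-3 stages, 18 higher and 3 lower in mature cells, beside 24.1% and 22.1% of all tested genes. Between the TSLP stages 16 were called, 14 higher and 2 lower, beside 12.9% and 12.2% of all. Skap1, an adaptor that carries signals from immune receptors to integrins, rose from 3.29 ± 0.948 to 71.4 ± 14.2 CPM in IL-3 cultures (4.39 ± 0.27 on the log2 scale, edgeR adjusted p = 3.36e-09) and from 28.4 ± 5.99 to 93.2 ± 10.2 CPM in TSLP cultures (1.71 ± 0.21, edgeR adjusted p = 1.63e-05). Apbb1ip, whose product RIAM brings talin to integrins, rose from 85.9 ± 3.07 to 308 ± 44.5 CPM and from 124 ± 7.47 to 219 ± 13.1 CPM. These 2 of the 38 tested were the adaptors called in the interaction, where 4.19% of all tested genes were called. Their values were -2.68 ± 0.35 and -1.02 ± 0.23 (edgeR adjusted p = 0.000354 and 0.0181). Zyx, Ptk2b and Rsu1, which act at adhesion sites, were also called higher in mature cells of both cultures, by 1.55, 1.37 and 1.32 with IL-3 and 0.94, 1.01 and 0.73 with TSLP. Parvg, the parvin of blood cells, fell by 1.40 and 0.75 on the log2 scale. The median over the 38 was 0.56 with IL-3 and 0.35 with TSLP, beside 0.06 and 0.03 over all tested genes. Between the cytokines, 10 were called in immature cells (7 higher and 3 lower with TSLP; 13.3% of all genes were called) and 11 in mature cells (5 higher, 6 lower; 24.3% of all), and these counts moved to between 4 and 16 and between 6 and 12 when 1 library was left out.

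**Figure D5:**
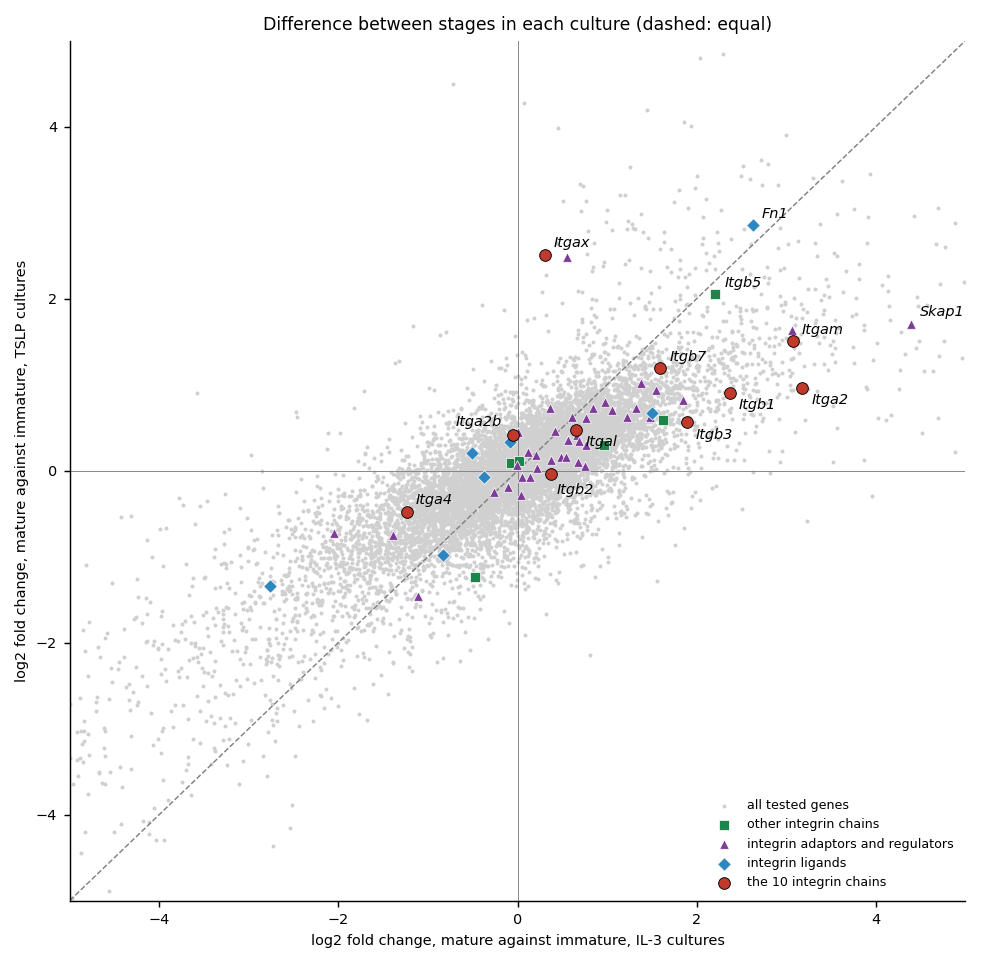
Log2 fold change of mature against immature cells in IL-3 (horizontal axis) and TSLP cultures (vertical axis) for all 10861 tested genes (grey), the 10 chains and the 3 lists; both axes stop at -5 and 5, and 191 genes beyond are not drawn. Itga2, Itgam, Itgb1, Itgb3 and Skap1 lie to the right of 0 and below the dashed line of equal change, and Itgax lies above it.

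Of 25 ligands, 7 were tested, so the cells' own transcripts for most ligands were too low to compare. Cdh1, the gene of E-cadherin, which binds the pair of the Itgae and Itgb7 products, rose with maturation from 289.9 ± 47.9 to 824 ± 18.3 CPM in IL-3 cultures (1.51 ± 0.18 on the log2 scale, edgeR adjusted p = 4.14e-06) and from 569 ± 34.5 to 905 ± 108 CPM in TSLP cultures (0.67 ± 0.17, edgeR adjusted p = 0.01). Fn1, the gene of fibronectin, was low and rose from 2.07 ± 0.187 to 13.1 ± 2.39 CPM and from 4.46 ± 2.73 to 31.7 ± 9.14 CPM (edgeR adjusted p = 8.33e-05 and 1.31e-05). Thbs1, the gene of the matrix protein thrombospondin, fell by 0.83 and 0.98 on the log2 scale and was higher with TSLP at both stages, by 0.82 ± 0.21 in immature and 0.66 ± 0.21 in mature cells (edgeR adjusted p = 0.0195 and 0.035). In all, 4 of the 7 ligands were called between the IL-3 stages and 3 between the TSLP stages, beside 46.2% and 25.1% of all tested genes. None was called in the interaction by edgeR (4.19% of all), where DESeq2 called 1 and 1 of the 7 had an unadjusted p under 0.05.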

How the data were processed

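The authors deposited raw counts per gene in 12 libraries of polyadenylated RNA, 3 in each of 4 groups, from sorted cells, read on an Ion Proton sequencer. The study's methods name Cutadapt for trimming and Bowtie2 for alignment to reference transcripts (GRCm38; the submitters' processing notes also name GRCm39) before counting by gene, so near-identical copies can share reads. Handling of multiple hits, strand and molecular identifiers is not given in the sources used here. An unnamed line equal to each column's sum was left out. Rn45s, a ribosomal RNA gene, took 7.43% to 20.2% of counts, 8.69% in TSLP mature 1 beside 15.8% and 17.4% in its group.

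Values are CPM over library totals scaled by edgeR's TMM (trimmed mean of M values). Counts were tested with the edgeR 4.0.16 quasi-likelihood test in R 4.3.3, in 1 fit of the 4 group means without a block, after filterByExpr (minimum count 10, minimum total 15), with p-values adjusted by the Benjamini-Hochberg method over 10861 genes. The common biological coefficient of variation was 20.4%. Differences are the first-named group minus the second. Within-library ratios were tested by exact permutation. The edgeR fit was tested on simulated data. Alternatives were DESeq2 1.42.0, other scalings and filters, thinning, replicate blocks and leaving out each library. Per the study, the 3 libraries of a group came from 3 cultures, and p-values measure the spread between them.

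The 10 chains are always named. From the lists of other chains, adaptors and ligands, genes averaging 10 CPM or more that were called between the stages of both cultures or in the interaction were named, up to 6 a list by the size of the IL-3 difference. Members and lists were chosen with earlier results of these data known.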

Additional observations from a re-analysis of the deposited data

Results flagged for a closer look

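For 4 chains, the effect of maturation differed between the cultures by the test of the difference itself (edgeR interaction, adjusted p under 0.05). Of all tested genes, 4.19% were called in it. The effect in TSLP cultures minus that in IL-3 cultures was -2.22 for Itga2, -1.56 for Itgam, -1.47 for Itgb1 and -1.33 for Itgb3 on the log2 scale. In each case the rise was smaller in TSLP cultures, in which the mean of the immature cells was higher. For Itgb1 the mature cells were also called lower with TSLP, by -0.86, beside 0.61 in immature cells. That Itgb1 call in immature cells was lost in 8 alternatives. All 4 were called under every alternative tried, with a range of -2.43 to -1.99 for Itga2, -1.67 to -1.50 for Itgam, -1.58 to -1.37 for Itgb1 and -1.47 to -1.19 for Itgb3. Over all tested genes the median size of the difference between stages was 0.66 with IL-3 and 0.43 with TSLP. The cells were sorted on the product of Itga2. Its interaction therefore compares the steps between the CD49b gates of the cultures and does not test maturation.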

How the results depend on the processing

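Of 1075 values of the 10 chains recomputed under alternatives (50 results), 980 kept their direction and side of the threshold, 65 lost a call, 13 gained one and 17 changed sign. Of 27 called results, 17 kept their call under every alternative and 0 changed sign. The sign changed only for uncalled differences. Itga2b between the IL-3 stages ran from -0.18 to 0.024 when 1 library was left out. Itga4 between mature cells was -0.00044 with TMM recomputed on uncalled genes, -0.0062 without Rn45s, -0.045 without Rn45s, Rn18s and Rn28s1, -0.14 when thinned to the smallest total, and -0.085 to 0.069 when 1 library was left out. Itgax ran from -0.31 to 1.08 between the IL-3 stages and from -1.34 to 0.049 between immature cells when 1 library was left out. The causes were not tested.

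The count of other integrin chains called in the interaction was 0 and became 1 under DESeq2, with TMM recomputed, without Rn45s, without all 3 ribosomal genes, with no filter, with a filter at 10 CPM and with either replicate block. Between mature cells it was 1 and became 2 with no filter. The count of adaptors called in the interaction was 2, and 4 under DESeq2 and 1 with no filter. That of ligands was 0, and 1 under DESeq2, with a filter at 10 CPM and with the replicate block over all groups.

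With 1 library left out, the chains called numbered 3 to 6 between the TSLP stages, 1 to 3 between mature cells, 3 to 7 between immature cells, 6 to 7 between the IL-3 stages and 4 in the interaction. The other chains called numbered 2 to 4 between the TSLP stages, 1 to 2 between mature cells, 0 to 1 between immature cells and 0 to 1 in the interaction. Adaptors numbered 6 to 12 between mature cells, 4 to 16 between immature cells and 1 to 2 in the interaction, and ligands 1 to 4, 1 to 2 and 0 to 1. Over all genes, 1774 to 3456 were called between the TSLP stages, 1658 to 2968 between mature cells, 588 to 2243 between immature cells and 240 to 723 in the interaction. The immature comparison lost most calls without TSLP immature 3, and gained most without TSLP mature 1. The ratio of Itga2b to Itgb3 ran from -1.15 to -0.93 between stages and from -0.94 to -0.71 between cytokines, and that of Itgal to Itgam from -0.82 to -0.56 between cytokines.

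Same-numbered libraries of a culture had correlations of their deviations of 0.0849, -0.0769 and 0.0724 (IL-3) and 0.157, 0.0635 and 0.365 (TSLP). Differently numbered ones ran from -0.137 to 0.0928 (IL-3) and from -0.242 to 0.145 (TSLP). With TSLP, the same-numbered 0.157 and 0.365 lay above that range. The labels do not say whether the numbers pair the libraries, and the main fit used no block. A replicate block within culture changed the call of no chain. The ratio of Itga2b to Itgb3 between stages, with sign flips of the same-numbered differences in place of the block, kept its -1.03 with an exact permutation p of 0.0938. The block within culture cannot be set against differences between cultures, so a block over all groups, chosen after seeing the data, was used there, which called Itgal between immature cells (0.55, edgeR adjusted p = 0.0464). With 3 libraries a group, a low gene such as Itgax, at 1 to 63 counts, is the one depth limits most.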
